A study of Mus musculus with 7 samples.

Results

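The genes encoding calcium/calmodulin-dependent protein kinases (CaM kinases) were examined for Fos binding in the hippocampus of mice given saline or kainic acid. The rule for the 10 genes is their names and uses no measured value, but they were picked with earlier results of these data known: Camk2a, Camk2b, Camk2d, Camk2g, Camk4, Camk1, Camk1d, Camk1g, Camkk1 and Camkk2. They are 10 of 21887 protein-coding genes on the assembled chromosomes, and all 10 were matched to a gene span of the build GRCm38.p6. A peak was assigned to a gene when it overlapped the span extended by 10 kb on both sides, called the window here.

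CaM kinases translate a rise of intracellular calcium into phosphorylation. Calcium-loaded calmodulin opens the kinase domain of CaMKI, CaMKII and CaMKIV, and CaM kinase kinases (CaMKK) further activate CaMKI and CaMKIV by phosphorylating them. In hippocampal neurons CaMKII is an abundant postsynaptic enzyme needed for long-term potentiation, and CaMKIV acts in the nucleus on the transcription factor CREB. Fos is made after strong neuronal activity and binds DNA as a dimer with a Jun protein, as the transcription factor AP-1.

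The study used chromatin immunoprecipitation with an antibody against Fos, followed by sequencing (ChIP-seq), on hippocampi of wild-type C57BL/6J mice aged 2 months. Of the 6 libraries with a peak list, 3 came from mice given saline and 3 from mice given kainic acid, which excites neurons through glutamate receptors and so causes seizures. The dose was 10 mg/kg by intraperitoneal injection, given 2 times 30 min apart, and tissue was taken from mice that reached level 4 seizures, 1 hour after injection 1. The number of animals per library is not in the labels, nor whether libraries came from separate animals, so the spread between libraries may be partly technical. The tissue was not sorted, so binding in more cells and stronger binding per cell cannot be told apart.

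The kainic acid lists held 15009, 63197 and 29650 peaks in replicates 1, 2 and 3, and the saline lists held 7, 3277 and 2. Saline replicates 1 and 3 could thus contribute almost nothing at any gene, and the part of list length in the results was not tested beyond the alternatives given here. A gene without a peak is a gene where none was called, which differs from an unbound gene. Read totals do not come with the lists, so the depth behind a peak is given as its pileup, the number of reads over the summit. The pileup was solved from the deposited fold and −log10 p of each peak.

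Fos peaks near the CaM kinase genes were more numerous after kainic acid. The windows of the 10 genes held 28, 118 and 51 peaks in kainic acid replicates 1, 2 and 3. They held 0, 7 and 0 peaks in saline replicates 1, 2 and 3. All 3 kainic acid libraries lay above all 3 saline libraries. On the scale log10(number + 1) saline libraries averaged 0.301 ± 0.521 (SD, n = 3) and kainic acid libraries 1.75 ± 0.308 (SD, n = 3), which is 1.45 higher. In a two-sided exact permutation test over the 20 assignments p was 0.1, and no smaller value is possible with 3 libraries a group.

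Relative to the length of each list the groups were not separated. The windows held 1.87, 1.87 and 1.72 of every 1000 peaks in kainic acid replicates 1, 2 and 3. The value was 2.14 per 1000 in saline replicate 2 (95% Clopper-Pearson interval 0.859 to 4.40), above all 3 kainic acid lists. Saline replicates 1 and 3 had 0 of 7 and 0 of 2 peaks there. The difference in this share was 1.11 per 1000 with p = 0.4 in the same exact permutation test, and it rests on the empty windows of the short saline lists.

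**Figure D1:**
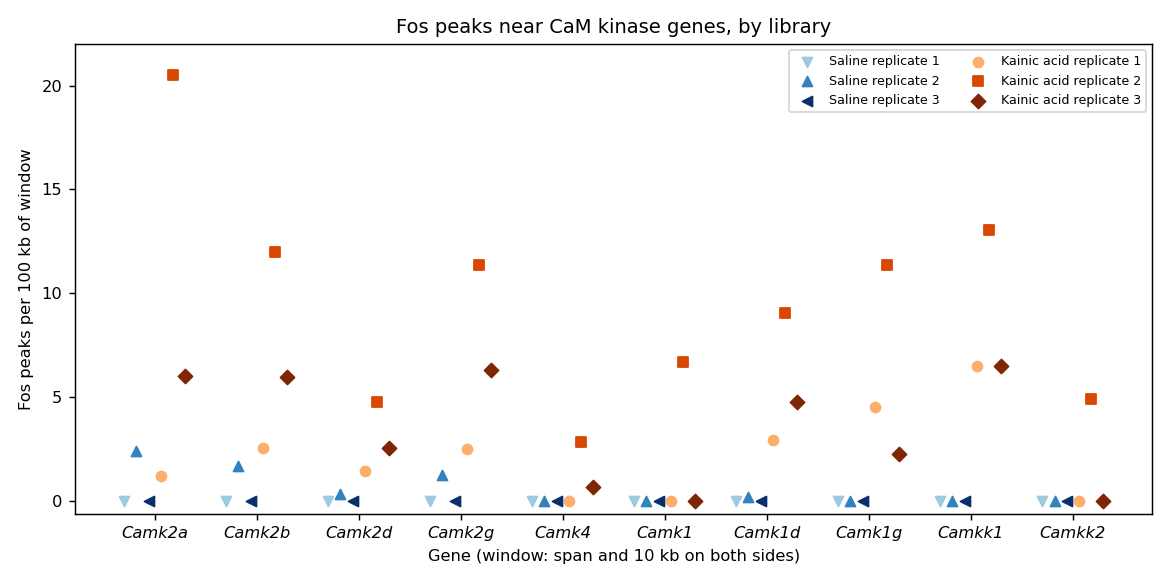
Fos peaks per 100 kb of window (vertical axis) for each CaM kinase gene (horizontal axis), with 1 point per library. Kainic acid replicate 2 has the highest value at all 10 genes, and saline points leave 0 only in replicate 2, at 5 genes.

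Taken gene by gene, 6 of 10 genes had more peaks in every kainic acid list than in every saline list: Camk2b, Camk2d, Camk2g, Camk1d, Camk1g and Camkk1. Among all protein-coding genes the same held for 20.7%. The other 4 genes overlapped between the groups. Camk2a had 1 peak in kainic acid replicate 1 against 2 in saline replicate 2, and Camk4, Camk1 and Camkk2 had none in kainic acid replicate 1. By single lists, 7, 10 and 8 of the 10 genes had a peak in kainic acid replicates 1, 2 and 3, against 26.4%, 60.3% and 40.9% of protein-coding genes. With a median span of 62.0 kb the CaM kinase genes are longer than protein-coding genes as a whole, whose median span is 17.2 kb, and longer windows hold more peaks.

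Peaks of all lists were then merged into regions, and regions that 2 or 3 of the kainic acid lists supported were called shared. The windows of the 10 genes held 48 shared regions of 26862 in all. Of the 48, 42 touched a gene span and 6 lay outside it. Shared regions occurred at 8 of 10 genes, against 40.0% of all protein-coding genes. Regions of all 3 kainic acid lists occurred at 7 of 10 genes, against 23.9%. Camk1 and Camkk2 had no shared region.

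Replicate support was uneven. Of the 48 shared regions, 25 were in all 3 kainic acid lists, 52.1% (95% Clopper-Pearson interval 37.2 to 66.7). Over all shared regions of the series the share was 44.4%, inside that interval. Of the 23 regions in exactly 2 lists, 21 joined replicates 2 and 3, 2 joined replicates 1 and 2 and 0 joined replicates 1 and 3. A further 72 regions had a peak in 1 kainic acid list, 69 of them in replicate 2 and 3 in replicate 3. Leaving out kainic acid replicate 2 gave 26 shared regions and leaving out replicate 3 gave 27, so each of the 2 longer lists carries much of it.

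**Figure D2:**
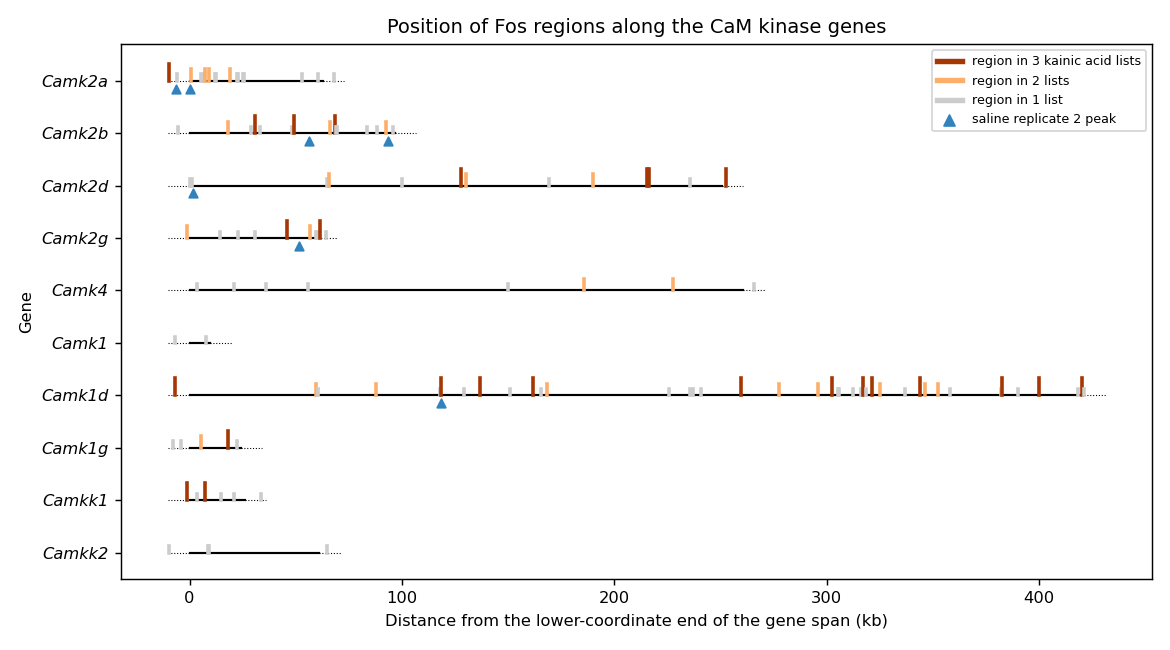
Positions of Fos regions along the 10 genes, in kb from the lower-coordinate end of each gene span (solid line, with the window of 10 kb on both sides dotted). Ticks are taller and darker with 1, 2 or 3 kainic acid lists, and triangles are the 7 peaks of saline replicate 2.

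The 4 CaMKII genes encode the subunits that assemble into the CaMKII holoenzyme. Together they held 10, 53 and 24 peaks in kainic acid replicates 1, 2 and 3 and 6 in saline replicate 2. They had 22 shared regions, 10 of them in all 3 lists. All 4 genes had at least 1 region in all 3 lists.

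Camk2a encodes the alpha subunit, the main form in forebrain excitatory neurons. Its window (chromosome 18, span 60925307 to 60988152) held 1, 17 and 5 peaks in kainic acid replicates 1, 2 and 3, and 2 in saline replicate 2. Kainic acid replicates 2 and 3 were thus high, and replicate 1 fell below saline replicate 2. It had 5 shared regions, or 6.04 per 100 kb, the highest density of the 10 genes. A single region was in all 3 lists, at 60915297 to 60916242, which is 9.07 kb outside the span. Of the 5 shared regions, 2 including this one were also within 10 kb of Arsi, a sulfatase gene. The best ranked region of Camk2a (60943828 to 60944590, inside the span) was called in kainic acid replicates 2 and 3, at folds of 6.84 and 5.41, and had no peak in replicate 1. Its pileup was 25 reads (95% Poisson interval 16.2 to 36.9) and 27 reads (17.8 to 39.3). Without kainic acid replicate 2 or without replicate 3, Camk2a kept a count of 1 shared region.

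Camk2b encodes the beta subunit, which ties the holoenzyme to actin. Its window (chromosome 11, span 5969629 to 6066357) held 3, 14 and 7 peaks in kainic acid replicates 1, 2 and 3, and 2 in saline replicate 2. Every kainic acid list was above every saline list. All 6 shared regions lay inside the span, and 3 were in all 3 lists. The best ranked of these (6018361 to 6019103) had a fold of 6.96, 10.5 and 9.53 and a pileup of 28, 38 and 47 reads in kainic acid replicates 1, 2 and 3. Its 3 summits lay within 3 bp of each other, 47.0 kb downstream of the listed start of the gene. It ranked in the top 8.79%, 4.52% and 2.21% of its lists by fold. Without kainic acid replicate 2 or replicate 3 the number of shared regions of Camk2b was 3.

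Camk2d encodes the delta subunit, found in many tissues. Its window (chromosome 3, span 126595487 to 126846326) held 4, 13 and 7 peaks in kainic acid replicates 1, 2 and 3, and 1 in saline replicate 2, with no overlap between the groups. It had 7 shared regions, 4 of them in all 3 lists, at 2.58 per 100 kb. The best ranked region (126848037 to 126848566) lay 1.71 kb beyond the far end of the span, 251 kb from the listed start. Its fold was 5.76, 13.5 and 4.97 in kainic acid replicates 1, 2 and 3. Its percentile rank by fold was 18.8, 1.87 and 26.0, so replicate 2 stood above replicates 1 and 3. Ranked by −log10 q, another region of all 3 lists came first, inside the span (126722479 to 126723792). Its mean percentile rank by −log10 q was 8.92, against 20.6 for the region beyond the span. Without kainic acid replicate 2 or replicate 3 the number of shared regions was 4.

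Camk2g encodes the gamma subunit, which carries calmodulin to the nucleus of neurons. Its window (chromosome 14, span 20734873 to 20794157) held 2, 9 and 5 peaks in kainic acid replicates 1, 2 and 3, and 1 in saline replicate 2, again without overlap. It had 4 shared regions, 2 in all 3 lists. The best ranked region (20780147 to 20780876, inside the span) had a fold of 5.64, 11.7 and 8.15 and a pileup of 23, 43 and 41 reads. A region 0.673 kb outside the span (20733554 to 20734200) was also within 10 kb of Ndst2 and Zswim8. Without kainic acid replicate 2 or replicate 3 there were 2 shared regions.

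The CaMKI genes encode monomeric kinases that CaMKK activates. Camk1d differed from the other two in length and in number of regions. Its span (chromosome 2, 5293457 to 5714860) is the longest of the 10 genes at 421 kb. The window held 13, 40 and 21 peaks in kainic acid replicates 1, 2 and 3, and 1 in saline replicate 2, so every kainic acid list was above every saline list. It held 20 of the 48 shared regions (41.7%) in 30.0% of the summed window length, and 12 of the 20 were in all 3 lists. Its density of 4.53 per 100 kb was below that of Camk2a, Camk2b and Camk2g and next to the 4.54 of Camk1g. Leaving out kainic acid replicate 2 gave 12 shared regions and leaving out replicate 3 gave 13.

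The strongest region of all 10 genes lay inside Camk1d (5613880 to 5615608), 99.7 kb downstream of the first listed start. Its fold was 11.2, 21.7 and 13.7 in kainic acid replicates 1, 2 and 3. These are ranks 152, 151 and 100 in the 3 lists, all within the top 1.01%. The pileup was 51 reads (95% Poisson interval 38.0 to 67.1), 88 (70.6 to 108) and 78 (61.7 to 97.3). The 3 summits lay within 40 bp, and no saline list had a peak there. All 3 libraries thus placed this region near the top of their lists at the same position.

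Camk1d regions were not spread evenly along the gene. Divided into 5 equal parts of 84.3 kb from the first listed start, the span held 6, 7, 0, 5 and 1 shared regions. The middle part, with 0 shared regions, held 4 regions of 1 list each. The first 2 parts together held 8 of the 11 regions inside the span that were in all 3 lists. These are counts within 1 gene, and the unevenness was not tested.

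**Figure D3:**
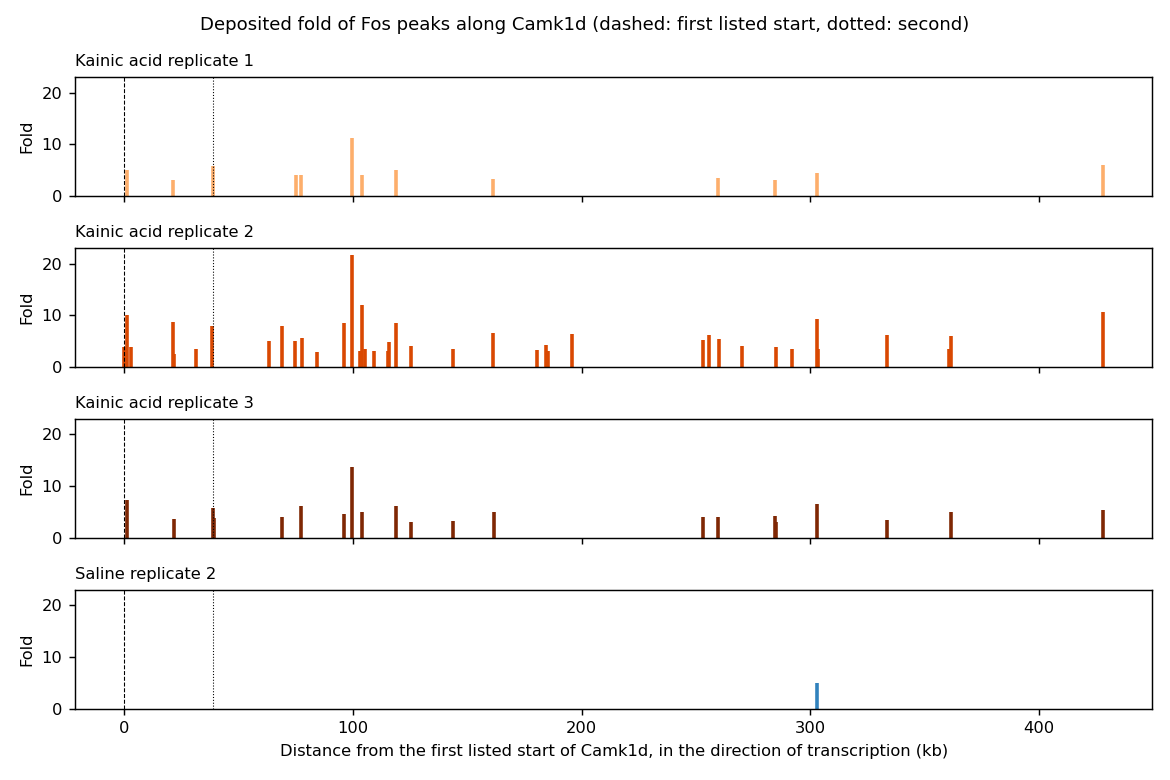
Deposited fold of each Fos peak (vertical axis) against distance from the first listed start of Camk1d in kb (horizontal axis), in the 3 kainic acid lists and saline replicate 2. The tallest peak of each kainic acid list stands 99.7 kb from the start, and the single saline peak stands at a region of all 3 kainic acid lists.

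Camk1d has 2 listed start sites, and Fos peaks covered both. The second start, inside the gene, fell in a region of all 3 kainic acid lists (5675907 to 5676723). The fold was 5.84, 7.97 and 5.71 and the pileup 26, 33 and 29 reads in kainic acid replicates 1, 2 and 3. All 3 summits lay in the 250 bases before this start. The first start carried a peak of kainic acid replicate 2 alone (5714713 to 5714936, fold 3.88), while a region of all 3 lists stood 1.22 kb further into the gene (5713075 to 5714091). The 250 bases before each start are shown because the summits of these peaks fall in them (RefSeq, GRCm38.p6, minus strand). In the first sequence the capitals mark the 145 bases between the outermost of the 3 summits. In the second they mark TGACTTCA, a match to TGACNTCA, the cyclic AMP response element with 1 free base, which starts 21 bp from the replicate 2 summit.
Camk1d second start, chr2:5676047-5676296: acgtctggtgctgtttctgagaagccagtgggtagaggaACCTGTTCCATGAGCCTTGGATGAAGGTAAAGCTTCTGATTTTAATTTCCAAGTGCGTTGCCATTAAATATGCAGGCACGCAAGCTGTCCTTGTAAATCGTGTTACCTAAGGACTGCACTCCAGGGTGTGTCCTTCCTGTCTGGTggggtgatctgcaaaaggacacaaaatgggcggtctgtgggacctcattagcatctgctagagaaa
Camk1d first start, chr2:5714763-5715012: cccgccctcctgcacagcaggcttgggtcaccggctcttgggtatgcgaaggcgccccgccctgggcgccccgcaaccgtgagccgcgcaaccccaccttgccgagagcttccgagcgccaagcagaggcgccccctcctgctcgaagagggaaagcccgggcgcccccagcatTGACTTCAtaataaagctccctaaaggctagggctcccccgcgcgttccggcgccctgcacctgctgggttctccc

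Camk1g encodes a membrane-anchored CaMKI. Its window (chromosome 1, span 193346346 to 193370355) held 2, 5 and 1 peaks in kainic acid replicates 1, 2 and 3 and none in any saline list. It had 2 shared regions, 1 of them in all 3 lists. The best ranked (193351365 to 193352156, also within 10 kb of the laminin gene Lamb3) was called in kainic acid replicates 1 and 2, at folds of 4.28 and 8.33, and had no peak in replicate 3. Without kainic acid replicate 1 or replicate 2 there was 1 shared region.

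Camk1, the gene of CaMKI alpha, had peaks in kainic acid replicate 2 only. Its window (chromosome 6, span 113334124 to 113343922) held 0, 2 and 0 peaks in kainic acid replicates 1, 2 and 3 and none in saline. The peak inside the span (113341702 to 113342254, also within 10 kb of Ogg1) had a fold of 7.14 and ranked at 14.9% of its list. Of the 14381 protein-coding genes under 30 kb, 28.7% had a shared region. With a reach of 50 kb Camk1 had 3 shared regions, and the share over all genes at that reach was not computed.

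Camk4 encodes CaMKIV, the nuclear kinase of CREB. Its window (chromosome 18, span 32934941 to 33195767) held 0, 8 and 2 peaks in kainic acid replicates 1, 2 and 3 and none in saline. Both shared regions lay inside the span and joined replicates 2 and 3. The better ranked (33120232 to 33120718) had a fold of 5.87 and 3.58, at percentile ranks of 24.4 and 66.6. Its density of 0.712 shared regions per 100 kb was the lowest among the 8 genes with a region. Without kainic acid replicate 2 or replicate 3 Camk4 had 0 shared regions. Of the 441 protein-coding genes of 250 to 450 kb, the length class of Camk4, Camk2d and Camk1d, 89.3% had a shared region.

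The CaMKK genes encode the upstream kinases, and they differed from each other. Camkk1 (chromosome 11, span 73016043 to 73042073) held 3, 6 and 3 peaks in kainic acid replicates 1, 2 and 3 and none in saline. Both of its shared regions were in all 3 lists. The region inside the span (73021309 to 73023822) had a fold of 4.32, 8.54 and 10.3 and a pileup of 26, 43 and 57 reads, which put it at 50.7%, 8.90% and 1.52% of the lists. Replicate 1 thus ranked it in the middle and replicate 3 near the top. Both regions were also within 10 kb of P2rx1, a gene of an ATP-gated channel.

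Camkk2 encodes the CaMKK that also activates AMP-activated kinase. Its window (chromosome 5, span 122718380 to 122779522) held 0, 4 and 0 peaks in kainic acid replicates 1, 2 and 3 and none in saline. The folds of the 4 peaks ranged from 2.84 to 4.05, in the lower part of the list. Each of these peaks was also within 10 kb of P2rx4 or Anapc5. Of the 2516 protein-coding genes of 50 to 100 kb, the class of Camkk2, Camk2a, Camk2b and Camk2g, 58.9% had a shared region. With a reach of 50 kb Camkk2 had 5 shared regions, and the share over all genes at that reach was not computed.

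Saline replicate 2 held all 7 saline peaks near the CaM kinase genes, 6 of them at CaMKII genes. It had a peak at 5 of 10 genes, against 17.0% of protein-coding genes. At Camk1d the saline peak (5411786 to 5411994, fold 4.96, 16 reads) lay in a region of all 3 kainic acid lists, whose folds were 4.40, 9.33 and 6.58. At Camk2a a saline peak (60925331 to 60925581, fold 4.19, near Arsi) stood at the lower-coordinate end of the span. It lay in a region of kainic acid replicates 2 and 3. It overlapped the replicate 2 peak there and ended before the replicate 3 peak began at 60925738. The other Camk2a saline peak (60919074 to 60919293, fold 4.70, also near Arsi) met a peak of kainic acid replicate 2 alone. The remaining 4 saline peaks, at Camk2b (2), Camk2d and Camk2g, met no kainic acid peak.

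The Camk2d saline peak (126596923 to 126597210, fold 3.33, 19 reads) covered the listed start of the gene. Its summit lay 94 bp downstream of that start. A peak of kainic acid replicate 2 ended upstream of it at 126596714. Both peaks ranked low by fold, at 87.5% of the saline replicate 2 list and 95.1% of the kainic acid replicate 2 list. The difference at this start thus rests on a single low-ranked peak in each of these lists and was not tested. The 250 bases before the start are shown with the 28 that the saline peak covers in capitals (RefSeq, GRCm38.p6, plus strand).
Camk2d start, chr3:126596701-126596950: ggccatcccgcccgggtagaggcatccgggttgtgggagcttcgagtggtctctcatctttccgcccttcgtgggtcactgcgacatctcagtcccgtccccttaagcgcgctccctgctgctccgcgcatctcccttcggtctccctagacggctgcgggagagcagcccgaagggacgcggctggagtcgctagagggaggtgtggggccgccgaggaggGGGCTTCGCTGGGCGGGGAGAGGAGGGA

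RefSeq start windows, which run from 250 bases before to 50 after a start, were matched for 7 of the 10 genes, with 8 windows in all. A peak of any list met 3 of the 8, the 2 of Camk1d and that of Camk2d, against 14.2% of all 32851 start windows. The windows of Camk1, Camk1g, Camk2b, Camkk1 and Camkk2 met none. Of the 37 shared regions at these 7 genes, 1 had its median summit within 1 kb of a listed start and 5 within 5 kb, and the median distance was 65.2 kb. Over all protein-coding genes with a listed start, 9.56% of shared regions were within 1 kb and 22.8% within 5 kb, with a median of 23.1 kb. These distances grow with gene length. In genes of 250 to 450 kb, which hold 27 of the 37 regions, the median was 97.3 kb over all genes and 123 kb over the CaM kinase genes. None of the 8 windows held the AP-1 motif TGANTCA or the cyclic AMP response element TGACGTCA on either strand. Of all 32851 start windows 7.81% and 1.79% did. The looser TGACNTCA, which includes TGACGTCA, was found in the windows of Camk1 and the first start of Camk1d, and in 8.83% of all windows. That motif was chosen after the windows had been seen.

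Ranks within the lists placed the CaM kinase peaks near the middle, with a few at the top. The median percentile rank by fold was 52.4, 42.7 and 36.8 in kainic acid replicates 1, 2 and 3, where 0 is the highest fold and 50 the middle of a list. The top 10% of the lists held 2 of 28, 16 of 118 and 7 of 51 of these peaks. Averaged over the lists with a peak, 4 of the 48 shared regions ranked within the top 10%. They were the strongest region of Camk1d, the best of Camk2g and 2 of Camk2b. Another 12 shared regions had a mean percentile rank above 50. Regions in all 3 lists had a median rank of 23.5, against 40.9 for regions in exactly 2 lists. The same rank values over all shared regions of the series were not computed, so these do not set the CaM kinase regions apart.

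**Figure D4:**
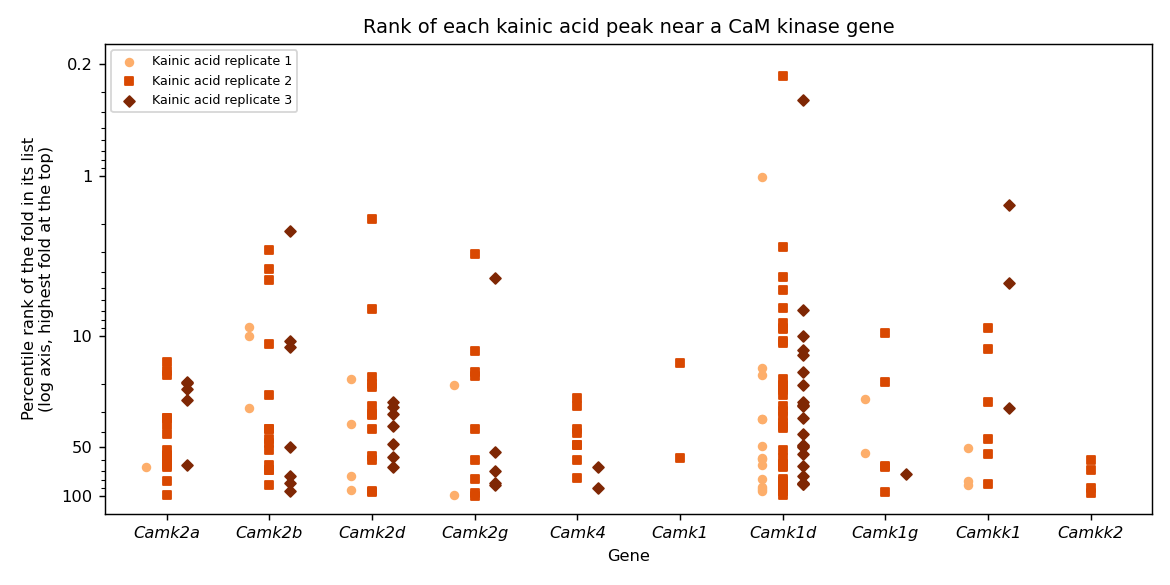
Percentile rank of the deposited fold within its list (vertical log axis, strongest at the top) for every kainic acid peak near each gene (horizontal axis). Camk1d has the top ranked peak in each of the 3 lists, and Camk4, Camk1 and Camkk2 have no peak of replicate 1.

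Per unit of length, the median over the 10 genes was 4.44 shared regions per 100 kb, against a median of 0 and a mean of 1.45 over all protein-coding genes. In the 50 to 100 kb class the median was 1.06, and 95.8%, 93.1% and 92.8% of the genes had a lower density than Camk2a, Camk2b and Camk2g. In the 250 to 450 kb class the median was 1.32, and 89.8%, 73.9% and 31.5% of the genes were below Camk1d, Camk2d and Camk4. In the class under 30 kb the median was 0, and 90.1% and 88.7% of the genes were below Camk1g and Camkk1. Camk1 (under 30 kb) and Camkk2 (50 to 100 kb) had a density of 0, as did every gene of their class without a shared region. In these classes 28.7% and 58.9% of the genes had a shared region. In peaks per 100 kb the kainic acid mean was 9.25 ± 10.1 (SD, n = 3) for Camk2a, 8.69 ± 3.76 for Camkk1, 6.85 ± 4.77 for Camk2b, 6.73 ± 4.43 for Camk2g, 6.06 ± 4.73 for Camk1g and 5.59 ± 3.14 for Camk1d. It was 2.95 ± 1.69 for Camk2d, 2.24 ± 3.87 for Camk1, 1.64 ± 2.85 for Camkk2 and 1.19 ± 1.48 for Camk4. The SDs are wide and the lists differ in length, but the part of list length in the SDs was not tested. Neighbours were therefore also compared within each list. Of 9 neighbouring pairs, 2 kept their order in all 3 lists. Camk1d was above Camk2d at 2.95 against 1.48, 9.06 against 4.80 and 4.76 against 2.58 peaks per 100 kb in replicates 1, 2 and 3, and Camkk1 was above Camk2b. The other 7 pairs were reversed or tied in at least 1 list. These are comparisons within 3 lists and were not tested.

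**Figure D5:**
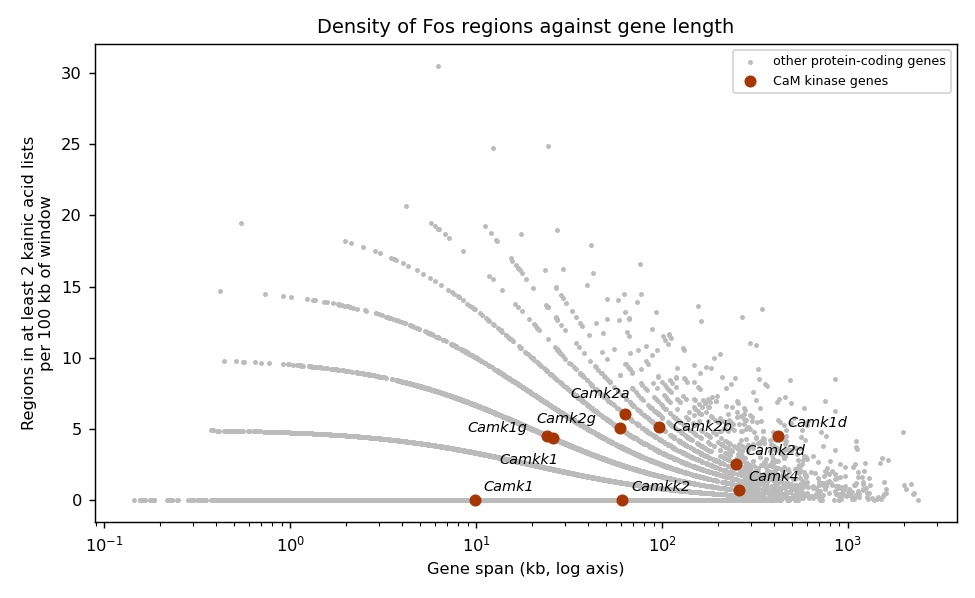
Shared regions per 100 kb of window (vertical axis) against gene span in kb (horizontal log axis), with 1 point per protein-coding gene. Of the CaM kinase genes, 8 lie between 0.712 and 6.04 and Camk1 and Camkk2 lie at 0.

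Other genes of the pathway were taken from a list of 36. Shared regions were found at 33 of 36, against 40.0% of all protein-coding genes, and 15 of 36 had more peaks in every kainic acid list than in every saline list, against 20.7%. The median span of the list was 62.5 kb, and 58.9% of protein-coding genes of 50 to 100 kb had a shared region. The spans of the 36 genes ran from 2.06 to 460 kb, so this class is not a matched background. Shares matched for length were not computed for the 33 or for the 15. All 4 genes of inhibitors and phosphatases of CaM kinases had a shared region, as did all 7 related kinases. It was 5 of 6 for calcineurin and its regulators, 2 of 3 for other calmodulin-binding proteins and 12 of 13 for substrates and targets. The exceptions were Ppp3cc, Pcp4 and Prkaa2. The most regions were at Ppp3ca, the catalytic subunit of calcineurin, and Gria1, an AMPA receptor subunit phosphorylated by CaMKII, with 37 each. Grin2b, an NMDA receptor subunit that binds CaMKII, and Dclk1, a doublecortin-like kinase, had 35 each. The median over the list was 3.61 per 100 kb, against 4.44 for the 10 CaM kinase genes, and this difference was not tested.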

How the data were processed

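Peak lists of 6 Fos ChIP-seq libraries were analysed, 1 list per library. Trim Galore 0.6.4, Bowtie2 2.3.4.3, MACS2, deepTools 3.5.0 and the build mm10 are named in the submitters' processing notes. The cutoff and control library are not given in the sources used here. The deposited peak names carry a mapping quality of 30 and merged alignment files. The fold the authors deposited is the ratio of a summit's pileup to its local background, in 1 library. The deposited −log10 p and −log10 q and the deposited score (10 times −log10 q, rounded down) also belong to 1 library. None is scaled between libraries, so they served to rank or filter within a list. The input library has no list here.

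Python 3.11.15, pandas 2.3.3, numpy 2.4.6 and scipy 1.17.1 were used. Peaks were merged at 1 bp of overlap. Gene spans and start windows came from RefSeq tables of GRCm38.p6, the same assembly as mm10. Exons were not analysed here. To get the pileup k and its background λ, the fold was taken as (k + 1)/(λ + 1) and p as the chance that a Poisson count of mean λ exceeds k. All 204 peaks were returned within 0.001 in −log10 p. On data simulated with the same formulas the calculation returned 500 of 500 pileups, which checks the solving step only. Intervals have a level of 95% and cover counting error only. The 10 genes and the list of 36 were chosen with earlier results of these data known. All 10 were described, each by its region of best mean percentile rank (over the kainic acid lists with a peak), with every saline peak. Of the 36, the 3 with most regions (4 with a tie) and those without one were named. A group of the 36 is not reported here. Alternatives changed the −log10 q minimum, the reach, the support, the merging, the list lengths and the libraries.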

Additional observations from a re-analysis of the deposited data

How the results depend on the processing

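The difference in log10(number + 1) stayed positive under the 13 alternatives run on that scale, from 1.29 to 1.75 with one library left out. The share per 1000 peaks, a different quantity, differed by 1.11 (exact permutation p = 0.4), with saline replicate 2 above all 3 kainic acid lists. As the exact test cannot pass 0.05 with 3 libraries a group, p-values say nothing about stability here. Replicates are numbered 1 to 3 in each group, without a label that ties equal numbers to one day or batch. The replicate block gave 1.45 (exact sign-flip permutation p = 0.25, the smallest that 3 pairs allow). Replicate 2 had the longest list in both groups, and the most peaks near the 10 genes (7 in saline, 118 in kainic acid). Whether same-numbered libraries deviate together by gene was not computed, since saline replicates 1 and 3 had 0 peaks at all 10 genes.

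The 48 shared regions became 17 with −log10 q of at least 10, 29 with equal numbers of kainic acid peaks, 25 with all 3 lists required and 120 with any list. Leaving out kainic acid replicate 1, 2 or 3 gave 46, 26 and 27 shared regions, and leaving out any saline library gave 48. The number of genes with a shared region ran from 6 (−log10 q of at least 10) to 10 (reach of 50 kb, or any list). It ran from 7 to 8 with 1 library left out. The share over all protein-coding genes was not computed under these alternatives. The share in all 3 lists was 35.3% at the −log10 q minimum of 10 and stood at 62.1% when the lists were made equally long, and the cause was not tested. It cannot be had with 2 kainic acid lists. Of 150 counts for single genes, 38 moved to fewer and 14 to more.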
